A study of Mus musculus with 12 samples.

Results

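The effect of losing Hdac6 was measured in the livers of mice that had received dexamethasone, by setting 3 knockout arrays against 3 wild-type arrays. These 6 of the 12 arrays in the series were chosen by their labels alone, and 17904 genes were tested on them. All mice were male C57Bl/6 animals fed ad libitum. The knockout is labelled HDAC6 Y/-, that is, the X-linked gene is lost from a male's only copy, and the label names no tissue-specific driver, so the loss is in every cell type as far as the labels say. Dexamethasone was injected intraperitoneally at 1 mg/kg over 3 weeks in both genotypes. The other 6 arrays, 3 knockout and 3 wild type, came from mice that received vehicle, and here they give the spread between animals and the knockout effect without the drug. Each array is 1 animal, and the labels give no age and no hour of tissue collection.

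Hdac6 is a mainly cytoplasmic deacetylase. It removes acetyl groups from tubulin and from Hsp90, the chaperone that holds the glucocorticoid receptor in a state that can bind hormone. Dexamethasone is a synthetic glucocorticoid. In liver, glucocorticoids are known to raise genes of gluconeogenesis, to cooperate with cytokines in inducing acute-phase proteins, to lower the activity of immune cells and to act on clock genes.

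Few genes separated the genotypes under dexamethasone. After adjustment over all genes 5 passed the threshold of 0.05 (limma, Benjamini-Hochberg), which is 0.0279% of those tested: Saa2 and Mdfic rose in the knockout (0.0112%), and Hdac6, Gdap10 and Acot1 fell (0.0168%). Of these 5, only Hdac6 was also among the 18 genes (0.101%; 0.0391% higher and 0.0614% lower) that passed between the genotypes under vehicle, a comparison that shares no array with this one. Below the threshold, markers of Kupffer cells, the resident macrophages of the liver, stood higher in the knockout arrays for 16 of 16 genes. That list was chosen with earlier results of these data known. Over all genes the median difference was -0.00342. Of the 4 clock genes among those 18, which were Usp2, Per1, Dbp and Per3, none passed under dexamethasone.

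Values are the deposited log2 intensities, on which a difference of 1 is a factor of 2, and errors of differences are standard errors of the fit. The 12 array medians lay between 3.13 and 3.24. Hepatocyte markers such as albumin gave list means of 12.57 to 12.66 on all 6 dexamethasone arrays, as the tissue label says. Wild-type dexamethasone array 3 carried transcripts of the exocrine pancreas: Cpa1, a pancreatic carboxypeptidase, was at 9.44 on it and at 2.95 to 4.09 on the other 5 dexamethasone arrays. Both wild-type vehicle arrays 1 and 2 and knockout vehicle array 3 carried them too, at 10.72 to 11.64. None of the 19 pancreas markers passed the threshold, and their median difference of -1.42 became 0.09 without wild-type array 3. Because the samples are whole liver, fewer cells of a type and less RNA per cell cannot be told apart.

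Hdac6 itself was at 5.86, 6.18 and 5.92 in the wild-type arrays and at 3.62, 3.89 and 3.75 in the knockout arrays. The groups were far apart and each was tight, as the labels require. The difference was -2.23 ± 0.14 (adjusted p = 1.53e-05), and it was -2.08 ± 0.14 under vehicle. The remaining signal need not be a transcript that makes protein, since the labels do not say which part of the gene was deleted. The other 10 members of the classical deacetylase family did not pass: Hdac8 had the smallest p of them, with a difference of 0.25 ± 0.20. The genes beside Hdac6 on the X chromosome stayed within -0.24 and 0.34, and 0 of the 12 measured among the 20 nearest entries of the reference table passed. Pim2, a kinase gene, had the highest value there (0.34 ± 0.14, unadjusted p = 0.0337), and Gata1, an erythroid transcription factor, the lowest (-0.24 ± 0.12).

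**Figure D1:**
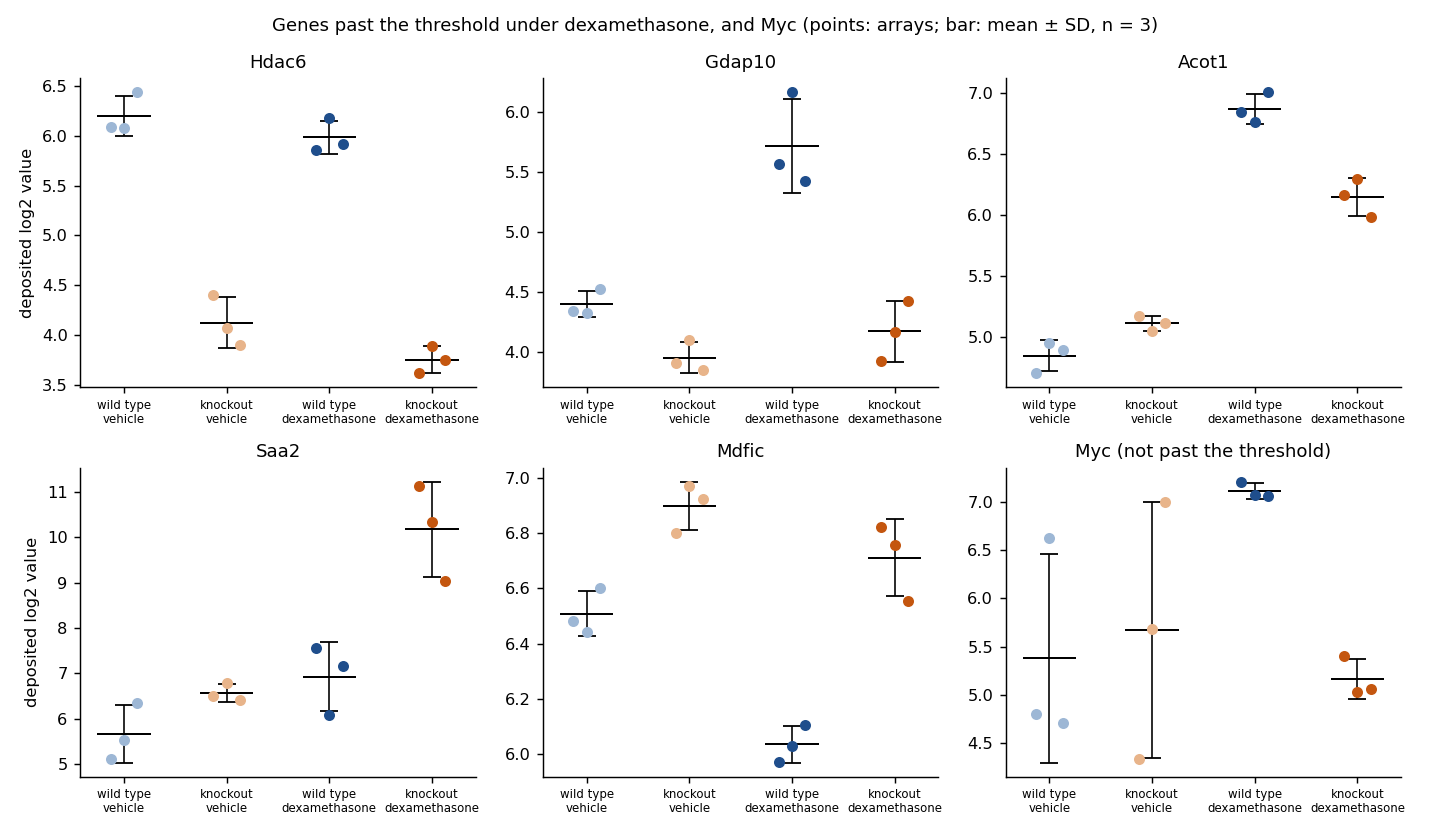
Deposited log2 values of the 5 genes past the threshold and of Myc, which did not pass, in the 12 arrays; points are arrays and the bar is the mean ± SD of n = 3. Hdac6 is low in all 6 knockout arrays, whereas Gdap10 is high only in the 3 wild-type dexamethasone arrays, which lie between 5.43 and 6.16, and the 3 highest Saa2 arrays are those of the knockout with dexamethasone.

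The largest difference of all was in Saa2, an acute-phase apolipoprotein of high-density lipoprotein that the liver makes in inflammation. Saa2 stood at 7.56, 6.07 and 7.16 in the wild type and at 11.13, 10.35 and 9.05 in the knockout. All 3 knockout arrays lay above the wild-type arrays, with knockout array 3 the nearest to them. The rise was 3.24 ± 0.47, a 9.46-fold difference (adjusted p = 0.0444). Under vehicle the knockout was higher by 0.91 ± 0.47, and the test of the difference between both effects gave 2.33 ± 0.67 (unadjusted p = 0.00392, adjusted p = 0.614). The size of the rise ranged from 2.77 to 3.81 over 22 alternatives, but it passed the threshold in only 7 of them (adjusted p 4.15e-03 to 0.239). Without wild-type array 3, the one with pancreas transcripts, it was 3.35 with an adjusted p of 0.101.

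Saa1, the neighbouring and closely related gene, read 9.09, 8.11 and 8.81 in the wild type and 9.97, 9.66 and 9.52 in the knockout. Its groups did not overlap either, but its difference of 1.05 ± 0.34 did not pass (adjusted p = 0.401). The promoters of both genes are shown because both stood higher in the knockout arrays by different amounts while their upstream sequence is nearly the same. Each line gives the 250 bases before the start of the gene, 5′ to 3′ on the gene's own strand, from RefSeq on GRCm38.p6. Capitals mark the bases that differ between both genes or have no partner in the alignment. Saa1 lies at chr7:46742981-46743230 on the minus strand and Saa2 at chr7:46751583-46751832 on the plus strand.
Saa1: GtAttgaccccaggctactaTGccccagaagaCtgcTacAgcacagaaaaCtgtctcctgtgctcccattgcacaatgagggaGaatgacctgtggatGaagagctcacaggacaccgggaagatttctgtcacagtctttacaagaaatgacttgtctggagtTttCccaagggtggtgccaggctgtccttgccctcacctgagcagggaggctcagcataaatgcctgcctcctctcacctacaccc
Saa2: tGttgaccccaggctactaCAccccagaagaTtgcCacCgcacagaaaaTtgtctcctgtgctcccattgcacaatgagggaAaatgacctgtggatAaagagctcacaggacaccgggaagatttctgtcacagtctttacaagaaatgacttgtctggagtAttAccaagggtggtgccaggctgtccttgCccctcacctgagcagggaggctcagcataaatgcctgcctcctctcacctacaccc

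Of 249 aligned base pairs 238 were identical (95.6%), with 11 mismatches and 2 unpaired bases. The core letters bound by C/EBP factors, TTNCNNAA on either strand, which are known to take part in acute-phase transcription, occurred in both windows, 182 bases before the start of Saa1 and 183 before that of Saa2. The Saa1 window held another match 86 bases before the start, over a pair of the marked differences. These letters occurred in 36.8% of all 32851 promoter windows of the same length, so a match describes the sequence and is not a site. The transcripts of both genes are also very alike, and how far the probes of one read the other was not tested.

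Of the 22 acute-phase genes measured, Saa2 alone passed the threshold. A further view of the list came from the unadjusted p, which was under 0.05 for 10 of the 22, all higher in the knockout, where 4.88% of all genes were higher at that level; 6 had groups that did not overlap, against 6.9% of all genes. The list's median difference was 0.18 beside -0.00342 over all genes. Serpina3n, a secreted serine protease inhibitor, was at 11.45, 11.23 and 11.16 in the wild type and 12.41, 12.06 and 11.53 in the knockout (0.72 ± 0.18, adjusted p = 0.233). Itih4, a serum glycoprotein of the acute phase, differed by 0.49 ± 0.12 and did not pass. Knockout array 3 was the lowest of the knockout arrays for Serpina3n, Itih4, Saa1 and Saa2, and without it 3 acute-phase genes passed and 13 had an unadjusted p under 0.05. That number was 4 without knockout array 2, 5 without knockout array 1 or wild-type array 2, and 6 without wild-type array 1 or in the fit to the 6 dexamethasone arrays, and in each of these settings no gene of the list passed. Without knockout array 3 more of all genes passed too, and the share of all genes in these settings is not given here. Cebpb, a transcription factor known to act on acute-phase promoters, was at 7.76, 7.62 and 8.12 against 8.43, 8.16 and 8.16 (0.42 ± 0.14, adjusted p = 0.419).

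Gdap10 had the smallest p after Hdac6. Its transcript read 5.57, 6.16 and 5.43 in the wild type and 3.93, 4.17 and 4.43 in the knockout, with no overlap. The fall was -1.54 ± 0.17 (adjusted p = 5.78e-03). Under vehicle the wild type stood at 4.40 ± 0.11 and the knockout at 3.96 ± 0.13 (SD, n = 3), a difference of -0.45 ± 0.17 that did not pass. The drug difference was 1.32 in the wild type and 0.22 in the knockout, values that share arrays with the genotype comparison. Gdap10 passed in 19 of 22 alternatives, with values from -1.69 to -1.32 and adjusted p from 1.61e-03 to 0.108, and still passed without wild-type array 3 (adjusted p = 5.83e-03). It did not pass without all 4 pancreas-bearing arrays (adjusted p = 0.093), without knockout array 2 (adjusted p = 0.0547) or in the fit to the 6 dexamethasone arrays (adjusted p = 0.108).

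Acot1 encodes a cytosolic thioesterase that releases fatty acids from long-chain acyl-CoA. It was at 6.84, 6.76 and 7.0 in the wild type and at 6.17, 6.29 and 5.98 in the knockout, with no overlap. The fall was -0.72 ± 0.11 (adjusted p = 0.0444). Under vehicle the sign was the other one, 0.26 ± 0.11, and the difference of the effects, -0.98 ± 0.15, had an unadjusted p of 1.77e-05 (adjusted p = 0.159). Both genotypes were higher with the drug than without, by 2.02 in the wild type and 1.03 in the knockout. The call depended on settings: it was kept in 5 of 22 alternatives (adjusted p 0.0431 to 0.303), and without wild-type array 3 the value was -0.65 with an adjusted p of 0.142. The related thioesterase gene Acot4 differed by -0.52 ± 0.16 and Acot3, near background, by -0.45 ± 0.19; neither passed.

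Mdfic encodes a protein with a MyoD family inhibitor domain. Its values were 5.97, 6.03 and 6.10 in the wild type and 6.82, 6.76 and 6.55 in the knockout. The tight groups were separated, and the rise was 0.68 ± 0.10, or 1.6-fold (adjusted p = 0.0444). The knockout was also higher under vehicle, by 0.39 ± 0.10, which did not pass (adjusted p = 0.351). Mdfic passed in 10 of 22 alternatives, at 0.62 to 0.75 (adjusted p 0.0111 to 0.22), and its adjusted p was 0.0767 without wild-type array 3.

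**Figure D2:**
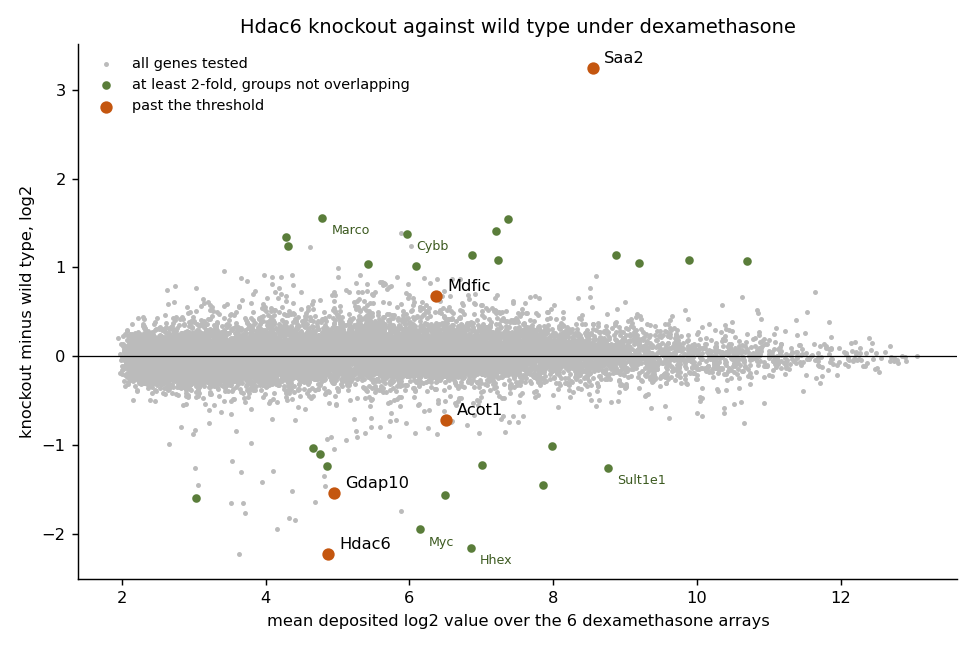
Knockout minus wild-type log2 difference of each of 17904 genes under dexamethasone against its mean log2 value over the 6 arrays; orange points passed the threshold and green points differ at least 2-fold with groups that do not overlap. Saa2 stands alone at 3.24, and most genes lie close to 0 at all levels.

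Without adjustment 1566 genes (8.75%) had a p under 0.05. By size, 50 genes differed at least 2-fold, 18 higher (0.101%) and 32 lower (0.179%). Of these, 14 were pancreas markers, and 28 had groups that did not overlap, 15 higher (0.0838%) and 13 lower (0.0726%). The genes named in this and the next paragraph were chosen after their values were seen, by that size, and apart from Hdac6 none passed the threshold. On the higher side they included the macrophage genes Marco, Cd5l, Cybb (the catalytic subunit of the phagocyte oxidase) and Cd53 (a leukocyte tetraspanin), at 1.56, 1.14, 1.38 and 1.02. Cybb was at 5.36, 5.06 and 5.41 against 6.76, 7.06 and 6.14 (± 0.26, adjusted p = 0.133). Liver-derived Fgl1 (1.08 ± 0.28) and Steap4, a metalloreductase (1.08 ± 0.21), were higher by like amounts.

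On the lower side the largest difference after Hdac6 among genes whose groups did not overlap was in Hhex, a homeobox transcription factor of the liver, at 8.50, 8.08 and 7.22 against 4.62, 5.72 and 7.01 (-2.16 ± 0.57, adjusted p = 0.285). Knockout array 3 stood just below the wild-type arrays and the other 2 well below. Myc, a growth-promoting transcription factor, was at 7.21, 7.07 and 7.06 in the wild type and 5.40, 5.03 and 5.06 in the knockout. Both groups were tight and far apart, yet the difference of -1.95 ± 0.56 had an adjusted p of 0.338, because the fit takes its spread from 12 arrays and Myc ranged from 4.34 to 7.0 over the 6 vehicle arrays. Fitted to the 6 dexamethasone arrays alone, Myc had an adjusted p of 4.44e-04, and the genes past the threshold there were Hdac6, Myc and Phlda1. Phlda1, a growth-factor-inducible gene, was at 8.92, 8.48 and 8.36 against 6.97, 7.26 and 7.18 (-1.45 ± 0.34, adjusted p = 0.199 in the fit to all arrays). Foxq1, a forkhead factor, differed by -1.56 ± 0.48.

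The genes next in order of p did not pass either. Among the higher ones, Tmtc2, which adds mannose to cadherins, was at 5.64, 6.19 and 5.77 against 6.87, 6.60 and 6.61 (0.82 ± 0.13, adjusted p = 0.0885), and it passed when arrays were centred on their medians. Slc22a7, an organic anion transporter of hepatocytes, differed by 1.09 ± 0.19, and Bach2, a transcriptional repressor of lymphocytes, by 0.82 ± 0.15. Tlr8, Igsf6, Syt12, Flvcr1 and Oasl2 followed at 0.51 to 0.89, with Tlr8 near background at 2.12 to 3.21.

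Among the lower ones, Sult1e1, estrogen sulfotransferase, was at 9.88, 9.40 and 8.91 in the wild type and 7.76, 8.12 and 8.54 in the knockout (-1.25 ± 0.23, adjusted p = 0.131). Every knockout array was below every wild-type array, and all 6 were above the vehicle arrays, which lay between 1.91 and 2.42. Treh, trehalase, differed by -0.91 ± 0.15 and Slc17a8, a glutamate transporter, by -1.24 ± 0.22. Pklr, the liver pyruvate kinase, was at 10.10, 9.97 and 9.83 against 8.99, 9.39 and 9.40 (-0.70 ± 0.14, adjusted p = 0.133). Apoa5, which sets plasma triglycerides, differed by -0.68 ± 0.13, Slc2a4, the insulin-responsive glucose transporter, by -0.54 ± 0.10 near background, and Adcy6, an adenylyl cyclase, by -0.52 ± 0.10.

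Kupffer cell and macrophage markers were all higher in the knockout under dexamethasone, but 0 of the 16 passed the threshold. The unadjusted p was under 0.05 for 13 of them, against 4.88% of all genes on the higher side, and 9 had groups that did not overlap, against 6.9%. The median difference of the list was 0.66. Per array the list mean was 6.34, 5.94 and 6.37 in the wild type and 6.89, 7.35 and 6.56 in the knockout. Knockout array 2 was highest and knockout array 3 closest to the wild type. Markers of a cell type vary together across animals, so these 16 genes are not 16 separate observations. The list was also chosen with earlier results of these data known.

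Among the genes that define the cell type, Cd5l, a protein secreted by macrophages, was at 6.23, 5.85 and 6.79 against 7.33, 8.01 and 6.98 (1.14 ± 0.28, adjusted p = 0.233). Cd68, a lysosomal glycoprotein, was at 4.75, 4.56 and 5.10 against 5.43, 5.87 and 5.28 (0.73 ± 0.17, adjusted p = 0.199). Both sets were apart in all arrays, with wild-type array 3 and knockout array 3 nearest to each other. Clec4f, a lectin restricted to Kupffer cells, differed by 0.54 ± 0.17, and Timd4, a receptor for phosphatidylserine on dying cells, by 0.91 ± 0.29. Of 3 further markers, named after their values were seen, Vsig4, a complement receptor, differed by 0.68 ± 0.23 and Csf1r, the receptor for the macrophage growth factor, by 0.58 ± 0.19. Slc40a1, the iron exporter that hepatocytes also use, had the smallest difference of the 3 at 0.19 ± 0.24.

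**Figure D3:**
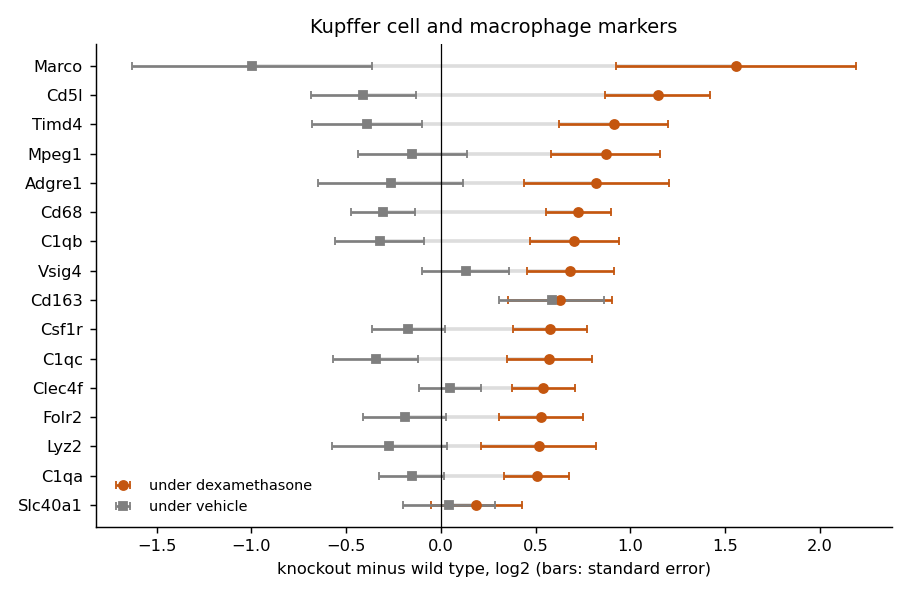
Knockout minus wild-type log2 difference of the 16 Kupffer cell and macrophage markers under dexamethasone (orange circles) and under vehicle (grey squares), with standard errors. All 16 are above 0 under dexamethasone, with Marco highest at 1.56 and Slc40a1 lowest at 0.19, and the median under vehicle is -0.23.

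Under vehicle the same markers had a median knockout effect of -0.23, with 0 of 16 at an unadjusted p under 0.05 in either direction. That median rested on wild-type vehicle array 1, whose list mean was 7.57 against 6.73 to 7.08 in the other 5 vehicle arrays, and it was 0.03 without that array. The test of the difference of the knockout effects had an unadjusted p under 0.05 for 10 of the 16, against 6.19% of all genes, and an adjusted p under 0.05 for none of them, as for all 17904 genes. The drug difference, which shares arrays with these comparisons, had a median of -0.88 over the list in the wild type and -0.02 in the knockout. Both that test and the wild-type drug difference include wild-type vehicle array 1, and neither is given without it. Without wild-type dexamethasone array 3 the list's median genotype difference was 0.73 and 13 genes had an unadjusted p under 0.05. Without all 4 pancreas-bearing arrays it was again 0.73, with 15 genes. That number fell to 5 without knockout array 2 or without wild-type array 2, with medians of 0.52 and 0.51. It rose to 15 without knockout array 3, with a median of 0.82. The share of all genes in these settings is not given here.

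Some other immune lists stood higher in the knockout beside the Kupffer markers, and the part of that cell type in them was not tested. The T and NK cell, B cell and neutrophil lists did not stand higher, with medians of -0.06, -0.06 and -0.04. Of 7 genes of MHC class II presentation none passed, and 3 had an unadjusted p under 0.05, all higher (4.88% of all genes were): H2-Aa (0.90 ± 0.28), H2-Ab1 (0.84 ± 0.31) and Cd74, the invariant chain (0.73 ± 0.27). H2-Aa was at 5.21, 5.08 and 5.83 against 6.28, 6.82 and 5.72, so knockout array 3 lay inside the wild-type range. Without knockout array 2 the number was 1. Ciita, another gene of the list, differed by -0.17 ± 0.09 near background. Under vehicle H2-Aa, H2-Ab1 and Cd74 were also higher in the knockout, at 0.47, 0.26 and 0.27, without passing. The list's median there was 0.145. The complement list repeats C1qa, C1qb and C1qc of the Kupffer list, and none of its 27 genes passed; outside these 3, Cfb, a factor of the alternative pathway, differed by 0.24 ± 0.09.

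All 25 interferon-response genes measured were higher in the knockout under dexamethasone, by 0.07 to 0.67 with a median of 0.30, and none passed. The unadjusted p was under 0.05 for 9 of them, against 4.88% of all genes on the higher side, and 6 had groups that did not overlap, against 6.9%. Irf7, the transcription factor that amplifies type I interferon, was at 5.85, 5.57 and 5.91 against 6.27, 6.63 and 6.01 (0.52 ± 0.15, adjusted p = 0.336). Oasl2, an interferon-induced antiviral gene, was at 3.41, 3.55 and 3.52 against 4.08, 4.31 and 3.89 (0.60 ± 0.11, adjusted p = 0.133). The groups of both genes were apart. Iigp1, an interferon-inducible GTPase, differed by 0.67 ± 0.17. Under vehicle the list's median was -0.16, and Irf7 and Oasl2 were at -0.58 and -0.29; the difference of effects had an unadjusted p of 1.62e-04 for Irf7 and 9.23e-05 for Oasl2, and no adjusted p under 0.05. Without wild-type array 2 or knockout array 1 the count of 9 was 5. Without knockout array 2 the list's median was 0.18, and without knockout array 3 it was 0.36.

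Of the 17 NF-kB targets and cytokines tested none passed, and 3 were higher at an unadjusted p under 0.05 (4.88% of all genes): Tnfaip3, a feedback inhibitor of the pathway (0.34 ± 0.11), Vcam1, an adhesion molecule (0.33 ± 0.12), and the chemokine Cxcl1. Cxcl1 was at 5.08, 5.04 and 5.31 against 6.14, 6.43 and 4.94 (0.69 ± 0.27, adjusted p = 0.502). Knockout array 3 was below all wild-type arrays and the other 2 well above them. Without knockout array 3 the value was 1.14 with an adjusted p of 4.15e-03, and 7 genes of the list were higher at an unadjusted p under 0.05. That number was 1 without knockout array 2 and 0 without the 4 pancreas-bearing arrays. The share of all genes in these settings is not given here.

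Cell-cycle genes were mostly at low values, with list means of 3.41 to 3.50 in the wild type and 3.57, 3.90 and 3.62 in the knockout. None of the 24 passed, and 9 had an unadjusted p under 0.05, all higher in the knockout (4.88% of all genes were). Ccnd1, cyclin D1, which admits hepatocytes to the cycle, was at 6.18, 6.09 and 6.22 against 7.54, 6.97 and 6.59 (0.87 ± 0.26, adjusted p = 0.357). Top2a and Mki67, markers of dividing cells, differed by 0.74 ± 0.24 and 0.61 ± 0.20; both were highest in knockout array 2, at 3.72 and 3.61. Without that array 4 genes had an unadjusted p under 0.05 and the median went from 0.22 to 0.08; without wild-type array 1 the number was 5, and with a filter at the 50th percentile it was 4 of 14. Tubb5, a beta-tubulin, was at 6.74, 6.08 and 5.97 against 6.98, 7.49 and 6.93 (0.87 ± 0.20, adjusted p = 0.175), and the 12 tubulin and tubulin-enzyme genes had a median of 0.04.

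Markers of the remaining cell types gave no call. Liver endothelial markers had a median of 0.14, with 4 of 16 higher and 1 lower at an unadjusted p under 0.05, against 4.88% and 3.87% of all genes, and 1 higher without wild-type array 3, 2 without wild-type array 2, knockout array 1, knockout array 2 or the 4 pancreas-bearing arrays; Cdh5, the endothelial cadherin, differed by 0.46 ± 0.14. Lists for stellate cells, T and NK cells, B cells, neutrophils and bile duct cells had medians between -0.09 and 0.00. T, B and neutrophil markers were near background on all 6 arrays, with list means of 2.42 to 2.83. The 9 hepatocyte markers differed by -0.05 to 0.11.

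**Figure D4:**
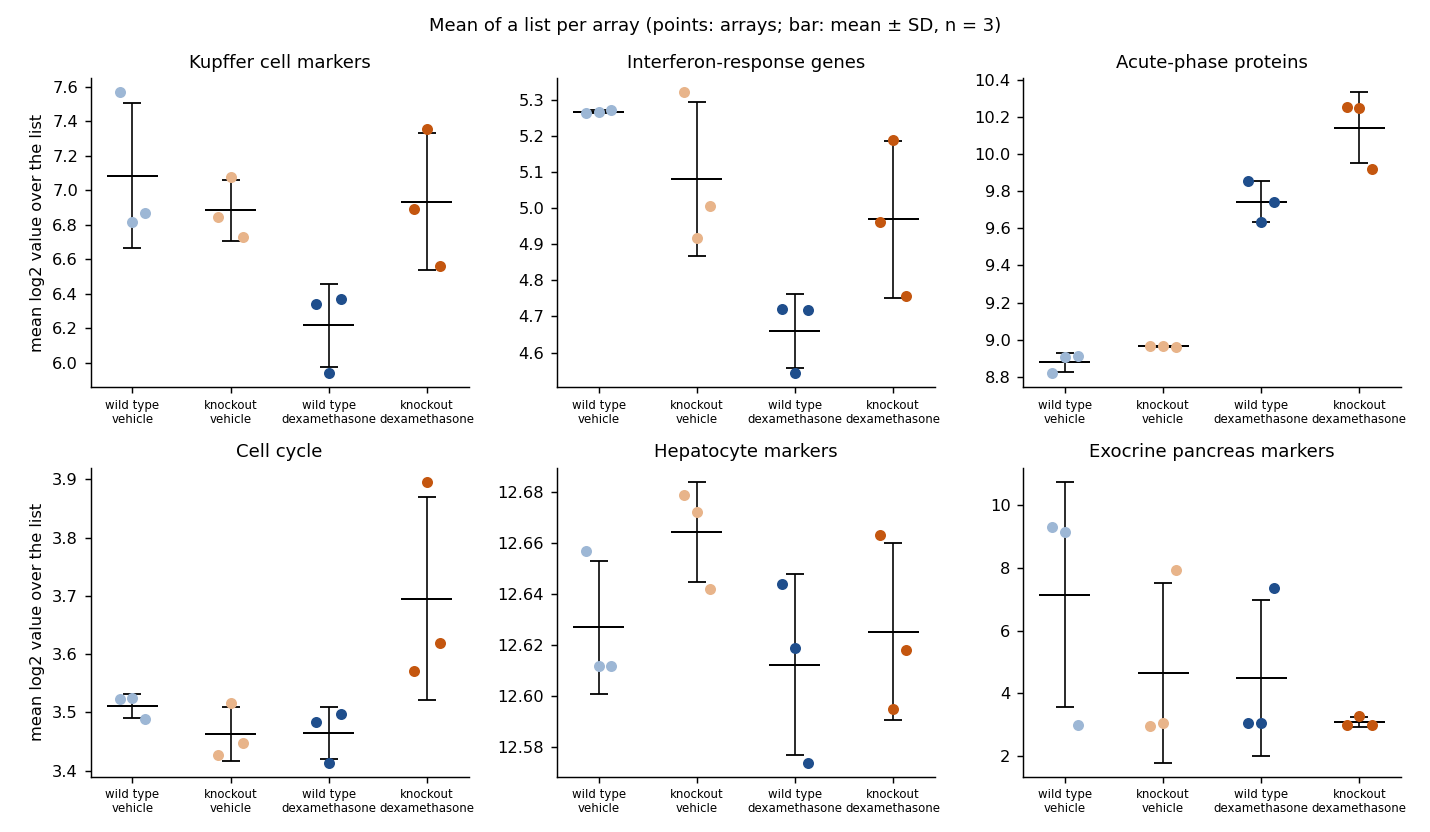
Mean log2 value of 6 gene lists in each of the 12 arrays; points are arrays and the bar is the mean ± SD of n = 3, each panel on its own axis. Under dexamethasone the 3 knockout arrays lie above the 3 wild-type arrays for the Kupffer, interferon, acute-phase and cell-cycle lists, hepatocyte markers lie between 12.57 and 12.68, and 1 wild-type dexamethasone array carries pancreas markers at 7.36.

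Known targets of glucocorticoids were examined because Hdac6 acts on the chaperone of their receptor. Of 27 glucocorticoid-induced genes none differed past the threshold between the genotypes, and the median was -0.03. At an unadjusted p under 0.05, 1 was higher and 2 lower, against 4.88% and 3.87% of all genes. These numbers were 0 and 1 without knockout array 1. Without knockout array 3 they were 6 and 3, with 1 gene past the threshold, a lower one, and a median of 0.04. More of all genes passed in that setting too, and the share of all genes in it is not given here. The list mean was 9.57, 9.60 and 9.60 in the wild type and 9.64, 9.55 and 9.44 in the knockout. Both ranges overlapped and lay well above the vehicle arrays, at 6.39 to 6.72. The members were chosen as induced genes with earlier results of these data known, so that distance is no separate result. Sult1e1 was the lowest member, and Sgk1, a kinase gene, was at 8.93, 8.99 and 8.38 against 7.77, 8.36 and 8.69 (-0.49 ± 0.22, adjusted p = 0.55). Tsc22d3, which encodes the anti-inflammatory protein GILZ, differed by 0.23 ± 0.17. In the list of 13 genes for the receptor itself (Nr3c1), its chaperones and coactivators and the cortisone-activating enzyme Hsd11b1 none passed; Hsp90aa1 differed by 0.35 ± 0.19 and Ncoa2, a coactivator, by 0.28 ± 0.09.

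No gene of glucose metabolism passed, and those with a small unadjusted p were mostly lower in the knockout. In gluconeogenesis 5 of 16 genes were lower at an unadjusted p under 0.05, against 3.87% of all genes, and 6 were lower without overlap, against 7.07%; the median was -0.11. Fbp1, fructose bisphosphatase, was at 11.99, 11.80 and 11.82 against 11.55, 11.57 and 11.57 (-0.30 ± 0.08, adjusted p = 0.307), and Pcx, pyruvate carboxylase, differed by -0.38 ± 0.12. Ppargc1a, a coactivator of the pathway, was at 6.43, 6.29 and 6.17 against 5.46, 6.08 and 5.97 (-0.46 ± 0.20, adjusted p = 0.537). The count of 5 was 2 after centring each array on its median. It was also 2 without wild-type array 1, wild-type array 2 or knockout array 1, and 3 with the replicate block. Under vehicle the list's median was -0.107, near that under dexamethasone. Fbp1, Pcx and Ppargc1a differed there by -0.004, -0.28 and -0.45.

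In sugar breakdown 4 of 12 genes were lower and 1 higher at an unadjusted p under 0.05, against 3.87% and 4.88% of all genes, and 2 were lower without wild-type array 2, without knockout array 3, without the 4 pancreas-bearing arrays or with arrays centred on their medians. Beside Pklr the lower ones included Khk, ketohexokinase (-0.53 ± 0.11), and Slc2a2, the hepatocyte glucose transporter (-0.27 ± 0.11), whereas Ldha, lactate dehydrogenase, was higher at 0.40 ± 0.12. Gys2, the liver glycogen synthase, was at 10.68, 10.95 and 10.74 against 10.11, 10.20 and 10.43 (-0.54 ± 0.14, adjusted p = 0.27). The groups were apart for Khk, Pklr, Slc2a2, Ldha and Gys2. The median of the sugar breakdown list was -0.129 under dexamethasone and -0.147 under vehicle. Without the drug Khk, Pklr, Slc2a2 and Gys2 differed by -0.13, -0.16, -0.33 and -0.25, and Ldha by 0.25.

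Lipid lists held few differences. Acot1 was the only call among 23 genes of fatty acid oxidation and ketogenesis, whose median was -0.04; Ehhadh, a peroxisomal enzyme, was at 0.44 ± 0.15. Lpl, lipoprotein lipase, was at 5.17, 5.62 and 5.15 against 5.93, 6.39 and 5.91 (0.76 ± 0.16, adjusted p = 0.159), without overlap. Plin5 and Cidec, proteins of the lipid droplet, differed by -0.36 ± 0.14 and -0.84 ± 0.28. None of 21 fatty acid synthesis and 17 cholesterol genes passed, with medians of 0.00 and 0.02. Of 29 respiratory chain genes 25 were lower by small amounts, with a median of -0.12, none past the threshold and 4 at an unadjusted p under 0.05 (3.87% of all genes); Sdhb, a subunit of complex II, differed by -0.31 ± 0.10. Without wild-type array 3 that median was -0.07 and 2 genes had an unadjusted p under 0.05, as also without wild-type array 1, knockout array 1 or the 4 pancreas-bearing arrays and with arrays centred on their medians.

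Cytochrome P450 genes gave no call among 23 tested, with 5 higher at an unadjusted p under 0.05 (4.88% of all genes). That number was 2 without wild-type array 2, knockout array 1 or knockout array 3, and 8 without the 4 pancreas-bearing arrays. Cyp2c55, a steroid-inducible enzyme, was at 3.38, 3.97 and 3.46 against 5.35, 4.23 and 5.26 (1.34 ± 0.28, adjusted p = 0.158). Nr1i2, the pregnane X receptor that induces such enzymes, was at 8.40, 8.37 and 8.47 against 8.01, 8.20 and 7.89 (-0.38 ± 0.10, adjusted p = 0.293). Of 15 NRF2 targets none passed; Hmox1, heme oxygenase, differed by 0.80 ± 0.23 and Osgin1 by -0.46 ± 0.17. In the growth hormone, insulin and IGF axis, Igfals, which carries IGF in blood, differed by -0.42 ± 0.12. Irs1, an insulin receptor substrate, differed by -0.64 ± 0.21, whereas Egfr and Stat5b were higher, by 0.48 ± 0.18 and 0.35 ± 0.18. None of them passed the threshold. Hamp, the iron hormone hepcidin, differed by -0.75 ± 0.34 (adjusted p = 0.565), with overlapping groups.

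Clock genes gave calls between the genotypes under vehicle and none under dexamethasone. Of 17 clock repressors and outputs, 4 (Usp2, Per1, Dbp and Per3) fell in the knockout under vehicle and none passed under dexamethasone; 14 and 5 were lower at an unadjusted p under 0.05 (3.93% and 3.87% of all genes), and the medians were -0.84 and -0.23. The count of 5 was 3 without wild-type array 3, knockout array 1 or the 4 pancreas-bearing arrays. The vehicle calls include 3 pancreas-bearing arrays, wild-type 1 and 2 and knockout 3. Without the pancreas-bearing arrays the vehicle median was -0.965, with only wild-type vehicle array 3 left in its group. Whether the 4 vehicle calls held there is not given here. The difference of the effects had an unadjusted p under 0.05 for 10 of the 17, against 6.19% of all genes, and for none an adjusted p under 0.05. Usp2, a rhythmic ubiquitin protease, was at 8.61, 8.66 and 8.65 in the wild type and 7.78, 8.48 and 8.65 in the knockout with the drug. Its difference was -0.34 ± 0.31 there and -2.88 ± 0.31 under vehicle (difference of effects 2.54 ± 0.44, unadjusted p = 7.01e-05, adjusted p = 0.25). Per1, a core repressor that glucocorticoids induce, was at 6.21, 6.04 and 6.16 against 5.90, 6.11 and 6.03 (-0.12 ± 0.20), beside -1.52 ± 0.20 under vehicle, and the difference of effects had an unadjusted p of 3.01e-04 (adjusted p = 0.337).

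Wee1 and Dbp were lower in the knockout with the drug as well, without passing. Wee1, a cell-cycle kinase driven by the clock, was at 7.41, 7.79 and 7.65 against 5.51, 6.46 and 7.20 (-1.22 ± 0.30, adjusted p = 0.233) and at -1.25 under vehicle. Dbp, a clock output transcription factor, was at 7.61, 7.58 and 7.68 against 6.62, 7.24 and 6.90 (-0.71 ± 0.20, adjusted p = 0.342) and at -1.39 under vehicle. Both were apart in all arrays. Per2 differed by -0.86 ± 0.34 and Per3 by -0.49 ± 0.19, with knockout array 1 the lowest array in both. Per2, for example, was at 3.96 in that array and 5.22 and 5.66 in the other knockout arrays, below 5.68 to 5.88 in the wild type. Cry1, another repressor, was at 5.15, 5.23 and 6.02 against 3.60, 4.46 and 5.20 (-1.05 ± 0.31, adjusted p = 0.358), beside 0.36 under vehicle.

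The heme receptor genes Nr1d1 and Nr1d2 differed by 0.88 ± 0.45 and -0.01 ± 0.11. Bhlhe40, Bhlhe41, Cry2, Ciart, Hlf, Tef and Tspan4 lay between -0.35 and 0.00, Lonrf3 at -0.71 ± 0.20 and Tsc22d3, which this list shares with the glucocorticoid targets, at 0.23. The list of clock activators and opposite-phase genes had a median of -0.13 under dexamethasone and 0.76 under vehicle, with 0 of 10 past the threshold in either. Arntl, the partner of Clock, was at -0.23 ± 0.26 with the drug and 1.42 without, and its difference of effects had an unadjusted p of 6.46e-04. Clock, Nfil3, Rora, Elovl3, E2f8, Rnf125 and Insig2 lay between -0.28 and 0.35 with the drug. Since no hour of collection is given, its part in these values was not tested.

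Promoters of Per3 and Per1 are shown because both genes passed under vehicle and the windows shown hold the letters of different clock elements. The D-box letters TTATGTAA, bound by Dbp, and the E-box letters CACGTG, bound by Clock and its partner, are in capitals in the 250 bases before the start, from RefSeq on GRCm38.p6, at chr4:151044666-151044915 on the minus strand for Per3 and chr11:69098699-69098948 on the plus strand for 1 of 2 starts of Per1.
Per3: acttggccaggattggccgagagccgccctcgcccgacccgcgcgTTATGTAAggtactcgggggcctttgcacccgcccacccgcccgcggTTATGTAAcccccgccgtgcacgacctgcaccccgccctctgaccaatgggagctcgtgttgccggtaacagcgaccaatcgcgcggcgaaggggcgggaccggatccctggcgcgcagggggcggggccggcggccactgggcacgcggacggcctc
Per1: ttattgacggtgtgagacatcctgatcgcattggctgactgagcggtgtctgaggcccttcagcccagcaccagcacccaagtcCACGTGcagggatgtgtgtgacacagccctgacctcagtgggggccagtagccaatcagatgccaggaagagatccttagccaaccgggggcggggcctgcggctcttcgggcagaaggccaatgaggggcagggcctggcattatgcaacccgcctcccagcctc

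Searched on both strands, the D-box letters occurred 2 times before Per3 and in 0.819% of all 32851 windows, and the E-box letters occurred 1 time before Per1 and in 6.02%. The other start of Per1 held neither. As for the Saa genes, a match describes the sequence and is not a site. Per3 was at 4.12, 4.70 and 4.80 against 3.79, 4.16 and 4.2 with the drug, so that its groups overlapped by a small margin.

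**Figure D5:**
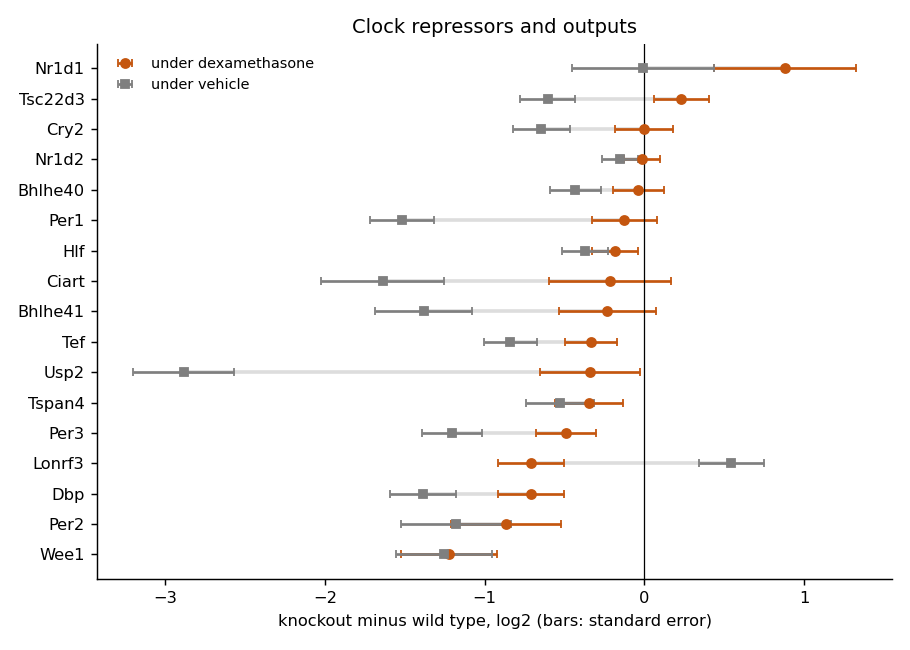
Knockout minus wild-type log2 difference of 17 clock repressors and outputs under dexamethasone (orange circles) and vehicle (grey squares), with standard errors. Usp2 lies at -2.88 under vehicle and -0.34 under dexamethasone, whereas Wee1 lies at -1.25 and -1.22.

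Of the 18 genes past the threshold under vehicle, Dbp, Fam47e and Upp2 were lower and Ddc, Rasa3 and Slc45a3 higher without overlap under dexamethasone, beside Hdac6. Of these 6, Dbp is a clock list member and the other genes were named after their values were seen, as were Mt2 and Tubb2a. Rasa3, a Ras GTPase-activating protein, had the smallest unadjusted p of these for the difference of effects: it was -0.76 under vehicle and 0.43 ± 0.11 under dexamethasone (adjusted p of the difference 0.0756). Mt2, a metallothionein, and Tubb2a, a beta-tubulin, were at -0.84 and 1.18 under vehicle and at -0.03 and 0.02 under dexamethasone. No gene passed the threshold for a difference of the effects, 1109 had an unadjusted p under 0.05 (6.19%), and 3 animals a group limit the precision.

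Arrays of the same genotype were not alike. Pairs of knockout arrays correlated at 0.989 to 0.9912 over all probe sets. Pairs of wild-type arrays, which include the one with pancreas transcripts, correlated at 0.9866 to 0.9904. Pairs across the genotypes correlated at 0.9854 to 0.9914, so these correlations did not set the genotypes apart. Over the means of the 50 gene lists, knockout array 3 was the knockout array nearest to the wild-type mean in 24, array 2 in 14 and array 1 in 12. Without knockout array 3 the number of genes past the threshold went from 5 to 37, 27 higher and 10 lower, all 5 among them. For a gene whose knockout array 3 is the nearest to the wild type, leaving it out widens the difference by construction. The larger number is therefore no separate evidence for these genes. The added genes, chosen after their values were seen, included Cxcl1, Msr1 (a macrophage scavenger receptor, 1.12 ± 0.14), Cldn1 (a tight junction protein, 2.06 ± 0.32), Serpina3n (0.96 ± 0.14), Cybb (1.63 ± 0.26), Wee1 (-1.63 ± 0.23) and Sult1e1 (-1.45 ± 0.23). Cldn1 was at 7.88 and 6.62 in the first 2 knockout arrays and at 5.22 in the third, inside the wild-type range of 4.96 to 5.34. Without knockout array 2 only Hdac6 passed, and without wild-type array 3 Hdac6 and Gdap10 did.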

How the data were processed

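The values are the authors' deposited log2 intensities of 34760 probe sets on 12 whole-transcript arrays, 1 per animal, for which the submitters' processing notes name R 2.10.0 and affy. Background correction, normalisation and annotation build are in none of the sources used here. Once sorted, no array's values were more than 0.215 from the mean of all arrays, so they had been normalised to each other.

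Of the probe sets, 21640 named 1 gene, 1321 several and 11799 none, and only the first were used. The probe set with the highest mean stood for each of 19937 genes, and the 17904 genes above the 20th percentile of their array in at least 3 arrays were tested. The fit had 4 group means over all arrays (limma 3.58.1, R 4.3.3), with Benjamini-Hochberg adjustment and a threshold of 0.05. The fit was tested on simulated data.

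Named genes were Hdac6, its 10 table neighbours on each side, genes past the threshold, the 10 with the smallest p in each direction, clock list members and up to 4 members with the smallest p of each list described; genes outside that rule are said to be, beside Cpa1, which served the check of the arrays, and the receptor list's Nr3c1 and Hsd11b1. The members and the 50 lists were chosen with earlier results of these data known, and of 933 list entries 823 had a probe set. Promoters came from RefSeq (GRCm38.p6). The alternatives were filters, normalisations, other fits, the replicate number as a block and leaving out arrays.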

Additional observations from a re-analysis of the deposited data

How the results depend on the processing

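Hdac6 passed in all 22 alternatives, and none of the 5 genes past the threshold changed its direction in any. The count of 5 genes past the threshold under dexamethasone was 3 without a filter on low values, 3 in the fit to the 6 dexamethasone arrays, 2 without wild-type array 3, 1 without all 4 pancreas-bearing arrays, and 1 to 37 when arrays were left out in turn. The vehicle count of 18 was 5 without the pancreas-bearing arrays and 5 to 28 when arrays were left out in turn. The count of 0 for the difference of the effects was 1 without the pancreas-bearing arrays (Ciart) and 0 to 3 when arrays were left out. Where a group was left with 1 array, that array was assumed to vary like the other groups. Replicate numbers are shared by all 4 groups in the labels, but same-numbered arrays under dexamethasone deviated together at correlations of only 0.047, -0.01 and -0.005, so the numbers were not taken to pair animals. With the replicate block the count under dexamethasone was 3 (Bach2, Gdap10 and Hdac6) and under vehicle 24. The cause of these changes was not tested.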
